A study of Epimedium pubescens with 27 samples.

Results

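The amino acid transporter family of Epimedium pubescens was taken as all genes whose description names the Pfam domain PF01490 or a transmembrane amino acid transporter protein. The rule found 66 of 58645 annotated genes, without use of their expression. Of these, 64 carried a Swiss-Prot match that placed them in a subfamily and 2 carried none. Leaves of 1-year-old seedlings were sampled under 3 nitrate supplies, 0 mM (LN), 7.5 mM (MN) and 22.5 mM (HN) NO3-, and at 3 stages, 24 (S1), 36 (S2) and 48 (S3) days after treatment (DAT), with 3 libraries, A, B and C, in each of the 9 groups and 27 in all. All seedlings had first been fed a dilute nutrient solution that held nitrate. The nutrient solutions differed in more than nitrate, since the added nitrate of HN came with sodium and LN received chloride and sulfate salts in its place, so that nitrate and these ions cannot be told apart here. The study asked how deficient, suitable and excess nitrogen change leaf gene expression, and MN is its reference supply.

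Members of this family move amino acids and related compounds across membranes, usually together with protons. In plants the amino acid permeases (AAP) and lysine histidine transporters (LHT) take amino acids into cells across the plasma membrane, and the AVT genes are named after yeast transporters of the vacuole, the organelle in which a leaf cell stores amino acids. The proline transporters (ProT), the GABA transporters (GAT) and the aromatic and neutral amino acid transporters (ANT) are smaller branches, and the AUX/LAX branch carries auxin, a growth hormone, into cells. Subfamilies here follow the Swiss-Prot match, mostly to Arabidopsis thaliana, and no transport activity was measured in Epimedium.

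The AVT genes formed the largest subfamily, with 22 members, followed by 16 AAP, 15 LHT, 4 GAT, 3 ProT, 2 AUX/LAX, 2 ANT and 2 members without a match. Expression is given as FPKM, the read count per gene length and library depth, which allows levels of different genes to be compared. AVT genes held 46.9% of the summed mean FPKM of the family, LHT 18.6%, AUX/LAX 12.7%, AAP 11.4% and GAT 7.17%. ProT held 2.44%, ANT 0.514% and the members without a match 0.235%. The 7 members with the highest means together held 75.9%. At the other end, 12 members had no count in any library, 8 had 1 to 9 counts over all libraries, and 35 had a mean FPKM under 1. A count of 0 in libraries of this depth says that a transcript was not detected, not that it is absent. For the tests, 35 members passed the filter on low counts and 31 did not, the deepest of which had 197 counts over all libraries. The 35 comprised 13 of 22 AVT, 8 of 16 AAP, 4 of 15 LHT, 3 of 4 GAT, 2 of 3 ProT, both AUX/LAX, both ANT and 1 of the 2 unmatched members. A gene that passed the filter through 1 group in which it is high is more likely to differ, so counts of members below are read only beside the same count over all tested genes. Several members below were picked because their libraries did not overlap in a comparison, so that lack of overlap restates the choice. It is a description and no support for a difference, since the share of all tested genes without overlap is not given.

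**Figure D1:**
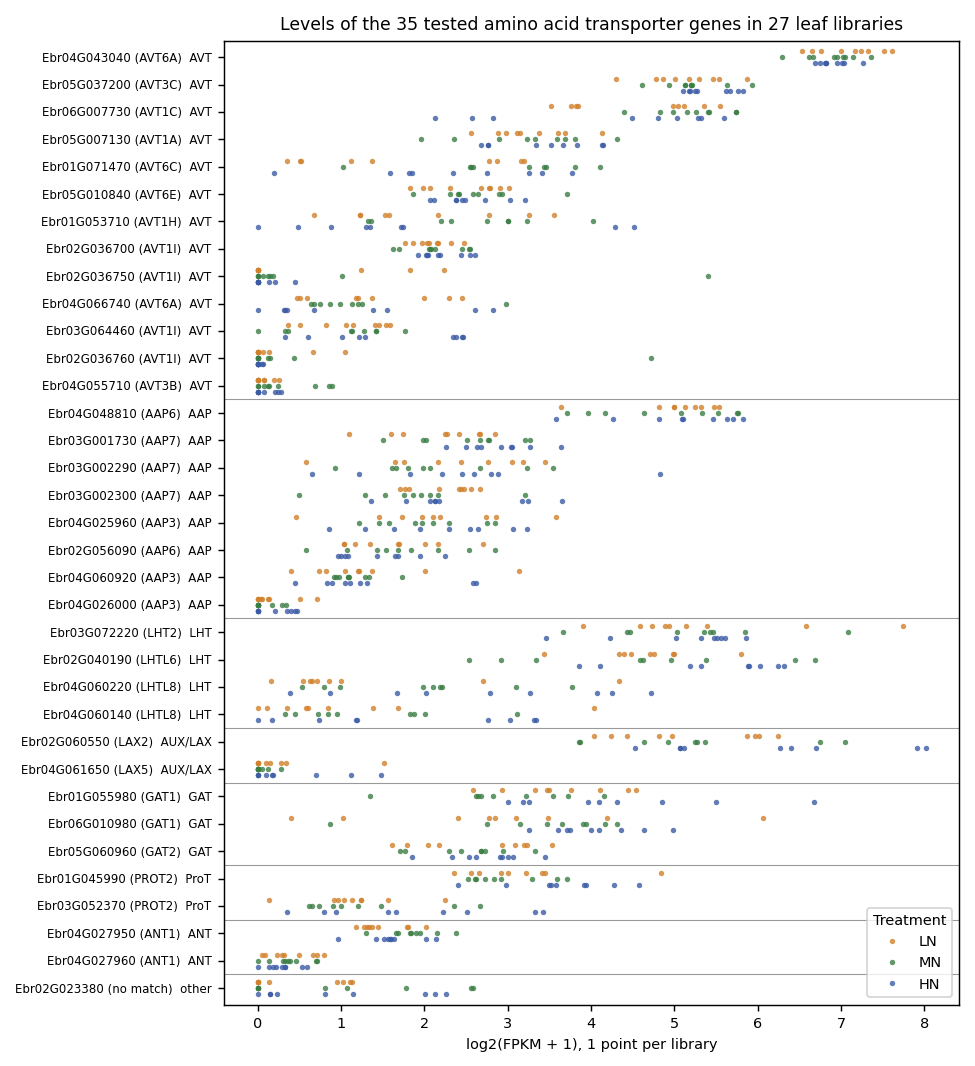
Each row is 1 of the 35 tested members, with its best Swiss-Prot match and subfamily, and each point is 1 of 27 libraries on a log2(FPKM + 1) axis, coloured by nitrate supply. The AVT6A match Ebr04G043040 lies highest, between 77.0 and 194 FPKM, and few members show a separation of the 3 supplies over all stages.

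Total counts per library ran from 13609959 to 18482851. Checked against marker lists, the libraries held 25080 to 74411 summed FPKM over 61 chlorophyll a-b binding genes, but 2 genes of the small subunit of Rubisco, the leaf enzyme that fixes carbon dioxide, reached only 1.03 to 292 in sum, with a median of 28.0. A list of 4 flower genes summed to 21.1 to 49.4 FPKM and 36 senescence genes, 25 of them at 0, to 174 to 632, beside at most 0.692 over 3 genes of the root Casparian strip, 2 of which had no count. In 6 of the 9 groups a pair of libraries were more alike than the closest of the 324 pairs drawn from different groups (coefficient of variation between 0.0798 and 0.182, against 0.224 to 0.395 in the other 21 pairs within groups). They were not copies of each other, since at least 23.6% of genes in each such pair differed beyond 3 counting standard deviations. The close pairs were LN S1 A and B, MN S1 B and C, LN S2 A and B, MN S2 B and C, HN S2 B and C and HN S3 A and B. The study describes its replicates as biological, and how the close pairs arose is not stated in the sources used here. The edgeR calls of family members are given also without 1 library of each close pair, a setting chosen after the data were seen. Differences that edgeR did not call are given without this setting, also where they rest on a close pair such as HN S2 B and C.

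Summed over all members, the family reached 701 ± 92.2 FPKM (SD, n = 3) in HN S2 and 598 ± 138 in MN S2, and between 379 and 512 in the means of the other 7 groups. Single libraries ran from 286 to 777, with a median of 462. The HN S2 libraries, at 598 to 777, overlapped those of MN S2, at 481 to 749, and lay above those of LN S2, at 396 to 565. This sum is set mainly by a few members, which are described one by one.

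The nitrogen comparisons asked which members differed between supplies at one stage. The edgeR quasi-likelihood test over all libraries called a gene at a Benjamini-Hochberg adjusted p under 0.05 and a log2 fold change of at least 1 in either direction. LN against MN called 0 of 35 members at S1, S2 and S3, where it called 0.00350%, 0.143% and 0% of the 28593 tested genes. HN against MN called 1 member at S1, where it called 0.192% of genes, and 0 at S2 and S3, where it called 0.234% and 0.276%. HN against LN called 0 members at S1, S2 and S3, where it called 0.112%, 0.00350% and 0.108% of genes. At an unadjusted p under 0.05, 4, 3 and 2 members differed between LN and MN at S1, S2 and S3, beside 10.3%, 12.2% and 9.48% of all genes. Between HN and MN 7, 5 and 6 members did, beside 13.9%, 15.0% and 18.8% of genes, and between HN and LN 1, 6 and 5, beside 12.1%, 11.3% and 16.4%. DESeq2, run on the same 27 libraries, called 2, 0 and 0 members in LN against MN, where it called 1.32%, 1.63% and 0.806% of the 44302 genes it tested. It called 2, 1 and 1 in HN against MN, beside 2.56%, 2.39% and 3.47% of genes, and 1, 0 and 0 in HN against LN, beside 1.85%, 0.955% and 2.28%. DESeq2 was run without the filter on low counts and tested 53 members in each of these comparisons, not 35.

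Over the 35 members, the median log2 fold change lay between -0.37 and 0.36 in the 12 pairwise comparisons. At S2, 23 of the 35 members were lower in LN than in MN, while 50.3% of all genes were higher. The median log2 fold change was -0.37 against 0.01 over all genes, and 12 of 13 AVT members were among the lower ones. These included Ebr02G036750 and Ebr02G036760, whose MN level rests on 1 library, MN S2 B. The lower LN levels were not shared by S1, where 23 members, 9 of 13 AVT among them, were higher in LN, beside 52.2% of all genes. The S1 median was 0.17 against 0.03 over all genes. At S3, 24 members were higher in HN than in MN, beside 48.4% of all genes, with a median of 0.28 against -0.01 over all genes. With members at the floor of 3 counts per library in both groups left out and members at 0 in one group held at that floor, these medians were -0.32 and 0.43. Members are not independent samples, so no test of these medians was made.

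**Figure D2:**
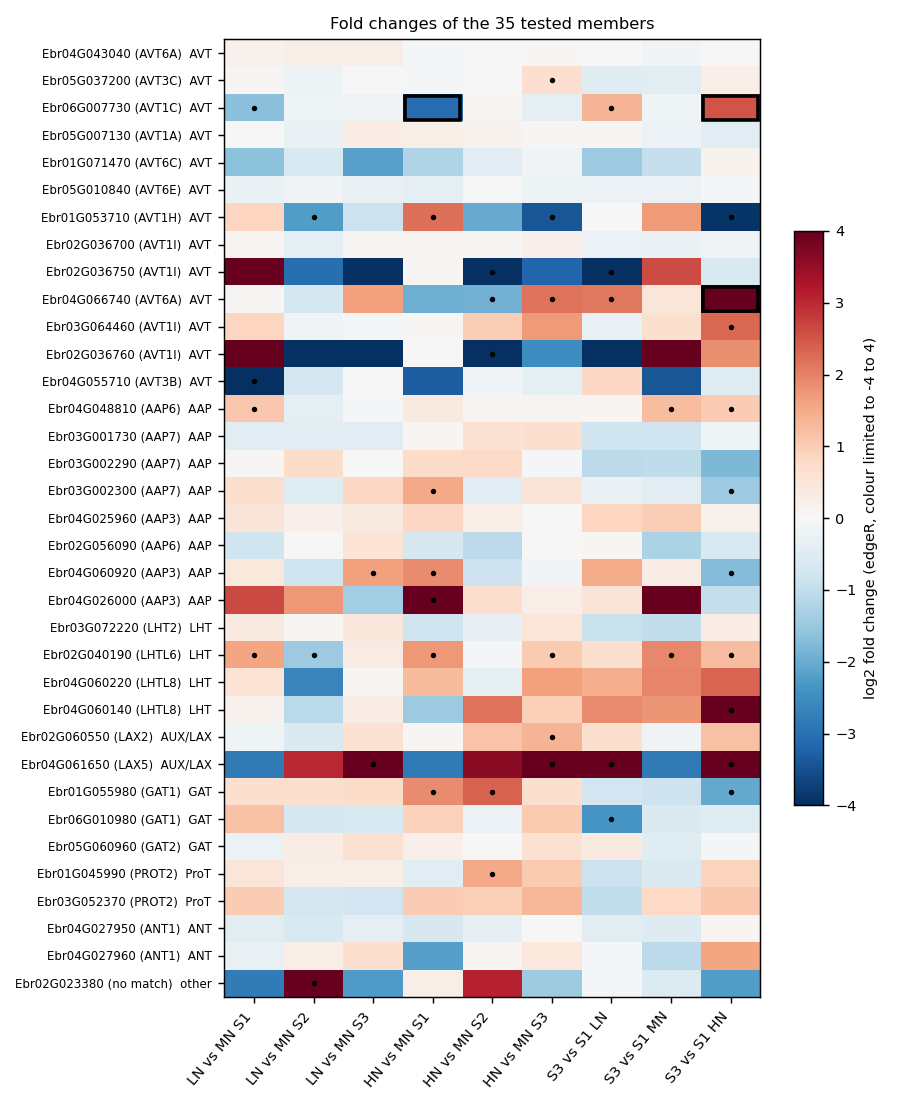
Colour gives the edgeR log2 fold change of each of the 35 tested members (rows) in 9 comparisons (columns), with red for higher in the first-named group. A black frame marks the 3 calls (adjusted p under 0.05 and log2 fold change of at least 1) and a dot an unadjusted p under 0.05. The frames lie on Ebr06G007730 in HN vs MN S1 and in S3 vs S1 HN and on Ebr04G066740 in S3 vs S1 HN.

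The 1 member called between supplies was Ebr06G007730, on chromosome 6 from 53072374 to 53096614 on the minus strand of the study's assembly, whose best match is AVT1C, an Arabidopsis member of the vacuolar AVT1 group. In HN S1 its levels were 6.08, 3.36 and 4.95 FPKM in libraries A, B and C, and in MN S1 they were 34.4, 41.4 and 41.7. In LN S1 they were 10.4, 12.6 and 13.2. The 3 supplies did not overlap at 24 DAT, with HN lowest, LN next and MN highest. Group means were 4.80 ± 1.37, 12.1 ± 1.44 and 39.2 ± 4.11 FPKM (SD, n = 3). The transcript was lower in HN than in MN by a log2 fold change of -3.05 ± 0.38 (SE; edgeR adjusted p = 0.000844). The log2 fold changes of LN against MN, -1.69 ± 0.36 (edgeR adjusted p = 0.128), and of HN against LN, -1.37 ± 0.36 (edgeR adjusted p = 0.141), were not called. DESeq2 on 27 libraries called both, with adjusted p = 0.00104 and 0.0246. The 2 Rubisco small subunit genes also differed at S1, at 56.9 to 153 summed FPKM in HN S1, 1.03 to 36.7 in MN S1 and 1.66 to 21.7 in LN S1. In MN they summed to 22.4 to 125 at S2 and 25.8 to 292 at S3. The part of these genes in the S1 difference was not tested.

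At the later stages the 3 supplies overlapped in Ebr06G007730. At S2 the levels were 32, 40.0 and 30.5 FPKM in LN, 27.4, 52.6 and 37.4 in MN and 39.0, 47.4 and 38.1 in HN. At S3 they were 33.6, 45.7 and 13.3 in LN, 20.1, 30.6 and 52.2 in MN and 26.9, 31.8 and 21.5 in HN. The log2 fold change of HN against MN was 0.11 ± 0.35 at S2 and -0.36 ± 0.35 at S3, and the sign of both turned with 1 library left out. In HN leaves the transcript rose from S1 to S3 by a log2 fold change of 2.52 ± 0.38 (edgeR adjusted p = 0.00355). It was 1.37 ± 0.36 higher at S3 in LN (edgeR adjusted p = 0.181), which DESeq2 on 27 libraries called (1.36, adjusted p = 0.0180), and the log2 fold change in MN was -0.18 ± 0.35. The dependence of the nitrogen effect on stage was tested directly with an interaction term over the 9 groups and passed for this member alone (edgeR adjusted p = 0.0428), in a test that called 0.175% of all genes. In that test 6 members had an unadjusted p under 0.05, beside 15.8% of genes.

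The direction and size of the HN difference at S1 varied little with the library left out, between log2 fold changes of -3.28 and -2.88, and the call stood in each of the 27 cases. Without 1 library of each close pair the log2 fold change was -3.01 and the call was lost (edgeR adjusted p = 0.0725), as was the rise from S1 to S3 in HN (2.38, edgeR adjusted p = 0.206). The interaction was less stable: it was lost when any of 16 libraries was left out (LN S1 A or B, MN S1 A, B or C, HN S1 B or C, LN S2 A or B, MN S2 C, HN S2 A, B or C, MN S3 B, or HN S3 A or B), with adjusted p between 0.0515 and 0.103, with the replicate letter as a block (0.0572) and without 1 library of each close pair (0.745).

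**Figure D3:**
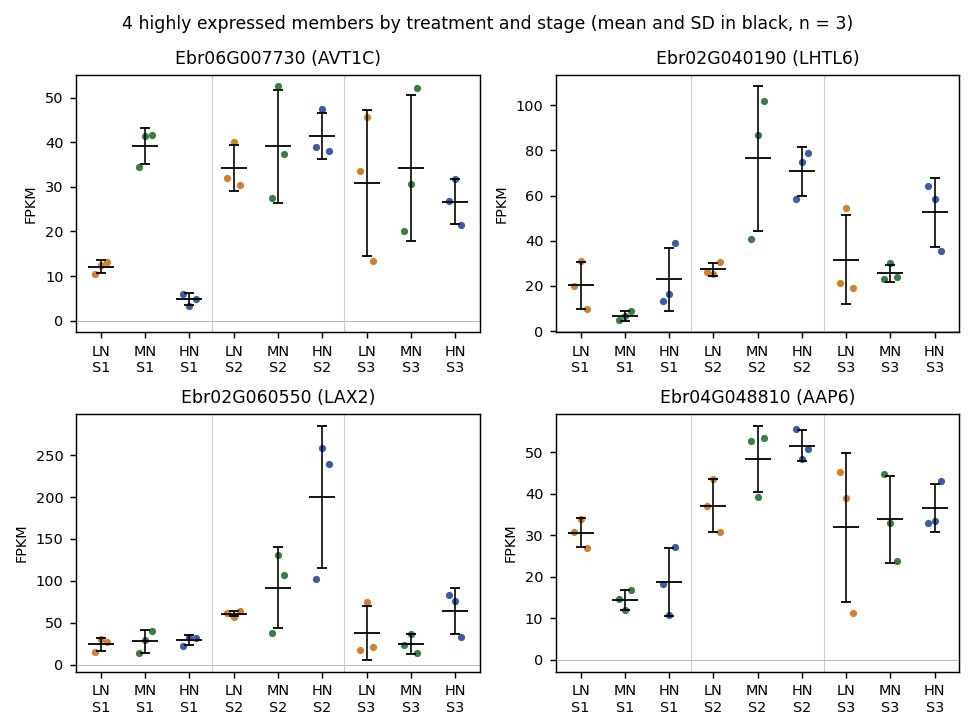
FPKM of 4 highly expressed members in LN, MN and HN leaves at S1, S2 and S3, with 1 point per library and the mean and SD (n = 3) in black. Ebr06G007730 is lowest in HN S1, Ebr02G040190 is lowest in MN S1, Ebr02G060550 is highest in HN S2, and Ebr04G048810 has its lowest mean in MN S1.

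Among the vacuolar branch, the most abundant member was Ebr04G043040, matched to AVT6A, at a mean of 126 FPKM and the first of the family. It ran only from 77.0 to 194 FPKM over 27 libraries, its group means lay between 106 in MN S3 and 160 in LN S2, and the test for any difference among groups gave an adjusted p of 0.413 (edgeR). Ebr05G037200, matched to AVT3C, averaged 38.8 FPKM (edgeR adjusted p = 0.489 for any difference), and Ebr05G007130, matched to AVT1A, 9.74 FPKM (edgeR adjusted p = 0.148). AVT3 proteins of Arabidopsis export neutral amino acids from the vacuole. No difference among groups was detected in these 3 members with 3 libraries per group, which does not show that their levels were equal.

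A second AVT6A match, Ebr04G066740, was a weakly expressed gene that differed with stage. It had 0, 5 and 6 counts in HN S1 and 126, 133 and 48 in HN S3, which is 0, 0.243 and 0.280 against 5.09, 6.10 and 1.93 FPKM. The stages did not overlap, and the transcript rose from S1 to S3 in HN by a log2 fold change of 4.61 ± 1.05 (edgeR adjusted p = 0.0324), 1 of the 2 members called in that comparison, where 1.50% of all genes were called. In LN its levels were 0.422, 1.31 and 0.384 FPKM at S1 and 1.58, 4.46 and 2.99 at S3, and in MN 0.827, 0.684 and 0.565 against 0.976, 0.604 and 1.3. LN S3 lay above MN S3 in every library, with a log2 fold change of 1.65 ± 0.90 that was not called (edgeR adjusted p = 0.581). HN S3 also lay above MN S3 in every library, with a log2 fold change of 2.18 ± 0.92 that was not called (edgeR adjusted p = 0.210). The highest single library was MN S2 B at 6.90 FPKM, beside 1.38 and 1.20 in MN S2 A and C. At S2 the levels were 1.26, 0.509 and 3.92 FPKM in LN and 1.61, 0.594 and 0.260 in HN. The call in HN was lost when HN S1 A, B or C was left out (edgeR adjusted p = 0.0639, 0.0718 and 0.103), without HN S3 A or B (0.141 and 0.157), when edgeR was fitted on these 6 libraries alone (log2 fold change 4.59, edgeR adjusted p = 0.0719) and without 1 library of each close pair (0.329).

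The AVT1H match Ebr01G053710 moved the other way in HN leaves, but its libraries were uneven. It had 42, 386 and 473 counts in HN S1 and 10, 0 and 58 in HN S3, or 2.34, 18.5 and 21.8 against 0.399, 0 and 2.30 FPKM. In MN S3 it stood at 8.4, 15.2 and 5.72 FPKM, above every HN S3 library. The log2 fold changes were -3.92 ± 1.09 for S3 against S1 in HN (edgeR adjusted p = 0.0609) and -3.41 ± 1.06 for HN against MN at S3 (edgeR adjusted p = 0.112), and neither was called. Leaving out HN S3 C, which held 58 counts, gave log2 fold changes of -6.06 and -5.56 with adjusted p of 0.0139 and 0.0227, and leaving out HN S1 A gave the first a log2 fold change of -4.41 with an adjusted p of 0.0474. With all libraries kept, other tools called both. The difference of HN from MN at S3 was called by DESeq2 on 27 and on 6 libraries (adjusted p = 0.00973 and 0.0315) and by limma with either pseudocount (0.0354 and 0.0267), and the fall in HN by DESeq2 on 27 libraries (0.00140) and limma (0.0201 and 0.0156). AVT3B match Ebr04G055710 had at most 17 counts in a library. Its counts in MN were 10, 17 and 17 at S1 and 0, 2 and 2 at S3, and the log2 fold change of -3.43 ± 1.82 was not called (edgeR adjusted p = 0.504). Every library outside MN S1 had at most 4 counts, so the gene passed the count filter through MN S1 alone. That the 2 stages did not overlap in MN is therefore no support for a difference.

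Of the transporters of the LHT group, Ebr02G040190 showed the clearest variation between groups. It matches LHTL6, lysine histidine transporter-like 6, lies on chromosome 2 from 346450569 to 346453188 on the plus strand and averaged 37.1 FPKM. At S1 it stood at 4.79, 6.54 and 9.12 FPKM in MN, at 20.0, 30.8 and 9.82 in LN and at 13.5, 16.2 and 38.8 in HN. MN was below both other supplies in every library, the reverse of the order in Ebr06G007730. The log2 fold changes were 1.58 ± 0.47 for LN against MN (edgeR adjusted p = 0.268) and 1.72 ± 0.47 for HN against MN (edgeR adjusted p = 0.116), and neither was called, whereas DESeq2 on 27 libraries called both (adjusted p = 0.0467 and 0.0127).

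At S2 the order in Ebr02G040190 changed. Its levels were 40.6, 86.6 and 102 FPKM in MN, 58.3, 74.9 and 78.9 in HN and 26.1, 25.2 and 30.6 in LN, so that LN now lay below both. LN against MN gave a log2 fold change of -1.47 ± 0.46 (edgeR adjusted p = 0.231) and HN against LN 1.38 ± 0.46 (edgeR adjusted p = 0.308). At S3 MN stood at 23.0, 30.04 and 23.7 FPKM, HN at 64.1, 58.4 and 35.3 and LN at 21.2, 54.5 and 19.2. DESeq2 on the 6 libraries of each comparison called both S2 differences, LN against MN and HN against LN (adjusted p = 0.0133 and 2.57e-06). In MN the log2 fold change from S1 to S3 was 1.92 ± 0.47 (edgeR adjusted p = 0.155), with no overlap between stages, and DESeq2 called it on 27 and on 6 libraries (adjusted p = 0.00636 and 0.000223). The edgeR test called no pair of groups for this member, although its test for any difference among the 9 groups was (edgeR adjusted p = 0.00324). That call stood whichever of the 27 libraries was left out, with adjusted p between 0.00133 and 0.0110, and was lost without 1 library of each close pair (0.146).

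The other LHT members were more uneven. Ebr03G072220, matched to LHT2, was the most abundant of the group at a mean of 46 FPKM, and its highest libraries were LN S1 C at 213 and MN S1 A at 134, each far above the other libraries of its group (edgeR adjusted p = 0.158 for any difference). A pair of LHTL8 matches, chosen after their values were seen, shared their highest and lowest group means, HN S3 and LN S2. Ebr04G060220 stood at 15.9, 18 and 25.4 FPKM in HN S3 and 0.568, 0.459 and 0.815 in LN S2, and Ebr04G060140 at 7.18, 9.09 and 8.98 against 0.281, 0 and 0.500. Single S3 libraries of the other supplies were also high. LN S3 C reached 19.1 FPKM of Ebr04G060220 and 15.3 of Ebr04G060140, the latter above every HN S3 library. MN S3 B reached 12.7 and 7.63, whereas LN S3 A and B held at most 0.798 of either. The tests for any difference did not pass (edgeR adjusted p = 0.141 and 0.0875).

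In the AAP group, Ebr04G048810 was the main leaf transcript at a mean of 33.8 FPKM. Its match, AAP6, is a high-affinity permease found in the xylem parenchyma of Arabidopsis. At S1 it stood at 14.6, 12.1 and 16.9 FPKM in MN, at 30.9, 34.0 and 27 in LN and at 18.2, 10.9 and 27.2 in HN. LN lay above MN in every library while HN overlapped both, and the log2 fold change of LN against MN was 1.09 ± 0.37 (edgeR adjusted p = 0.332). It was called by DESeq2 on 6 libraries (adjusted p = 0.0107). In MN the level reached 52.8, 39.4 and 53.5 FPKM at S2. The test for any difference among groups passed (edgeR adjusted p = 0.0223) and was lost without MN S1 B (0.0598) and without 1 library of each close pair (0.313).

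A pair of AAP7 matches met the rule for description in HN against LN at S3 without being called. Ebr03G001730 stood at 8.65, 7.32 and 4.67 FPKM in HN and 2.04, 3.74 and 3.83 in LN, a log2 fold change of 1.09 ± 0.45 (edgeR adjusted p = 0.248). Ebr03G002300 stood at 3.38, 3.36 and 3.19 FPKM in HN and 4.34, 4.42 and 3.52 in LN, a log2 fold change of -0.31 ± 0.58 (edgeR adjusted p = 0.821). In LN leaves Ebr03G001730 was also below its S1 levels of 5.36, 5.29 and 6.20 FPKM in every S3 library, and that log2 fold change of -0.80 ± 0.45 was not called (edgeR adjusted p = 0.508).

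The auxin carriers of the family were led by Ebr02G060550, matched to LAX2 of Medicago truncatula, on chromosome 2 from 508717624 to 508722372 on the minus strand. With a mean of 62.3 FPKM it ranked behind Ebr04G043040 alone. At S2 it stood at 103, 258 and 240 FPKM in HN, at 37.6, 131 and 106 in MN and at 61.4, 57.5 and 63.8 in LN. HN lay above LN in every library and overlapped MN. At S1 no library exceeded 40.2 FPKM under any supply, and at S3 HN stood at 83.5, 76.1 and 32.6, MN at 23.9, 36.9 and 13.4 and LN at 17.9, 74.8 and 20.5. The log2 fold changes of HN were 1.72 ± 0.57 against LN at S2 (edgeR adjusted p = 0.304), 1.15 ± 0.56 against MN at S2 (edgeR adjusted p = 0.336) and 1.37 ± 0.56 against MN at S3 (edgeR adjusted p = 0.200), and none was called by edgeR. DESeq2 on 6 libraries called the first (adjusted p = 0.000641). The test for any difference passed (edgeR adjusted p = 0.00566), in each of the 27 cases with a library left out (0.00145 to 0.0251), but not without 1 library of each close pair (0.207).

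A single list of phloem genes is given beside the LAX2 match, and no correlation between them was computed. The summed FPKM of 5 sieve element occlusion genes, all detected, was 13.8 to 79.4 in HN S2, 1.24 to 78.5 in MN S2 and 1.88 to 13.0 in LN S2. It was 29.8 to 63.7 in HN S3, 0.786 to 3.12 in MN S3 and 1.08 to 33.5 in LN S3, and at most 8.65 in any S1 library. Their part in the differences of this and other members was not tested, and in bulk leaves a larger share of a cell type and more RNA per cell cannot be told apart. The second auxin carrier, Ebr04G061650, matched to LAX5 of Medicago truncatula, had 196 counts in all. It had 48, 39 and 4 counts in HN S2 in libraries B, C and A and 53 in LN S2 C. At S3 it had 4, 2 and 19 counts in HN, 8, 6 and 0 in LN and none in MN, and HN against MN was not called (edgeR adjusted p = 0.180).

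The edgeR test called no GABA transporter between a pair of groups. Ebr01G055980, matched to GAT1, the high-affinity GABA transporter of Arabidopsis, averaged 16.0 FPKM. At S2 it stood at 8.52, 44.2 and 27.9 FPKM in HN and at 5.41, 5.22 and 5.12 in MN, and the log2 fold change was 2.37 ± 0.72 (edgeR adjusted p = 0.144). DESeq2 on 27 and on 6 libraries called this difference (adjusted p = 0.0220 and 0.00272). Its highest library was HN S1 A at 102 FPKM, beside 14.6 and 18.8 in HN S1 B and C, so that the mean of HN S1 rests on 1 library. A second GAT1 match, Ebr06G010980, averaged 13.7 FPKM and ranged from 0.322 to 66.1 within LN S1 alone. Its test for any difference gave an adjusted p of 0.570 (edgeR).

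The proline transporter match Ebr01G045990, closest to PROT2 of rice, averaged 9.68 FPKM. It stood at 10.9, 22.9 and 18.4 FPKM in HN S2 and at 6.56, 6.16 and 5.63 in MN S2, without overlap, with a log2 fold change of 1.52 ± 0.52 that edgeR did not call (adjusted p = 0.189) and DESeq2 on 6 libraries did (adjusted p = 0.00157). The leading ANT member, Ebr04G027950, averaged 2.23 FPKM (edgeR adjusted p = 0.645 for any difference). Ebr02G023380, without a Swiss-Prot match, averaged 1.15 FPKM and had 23, 30 and 35 counts in HN S1 against 0, 0 and 13 in LN S1. Its log2 fold change of 3.04 ± 1.74 was not called (edgeR adjusted p = 0.510).

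**Figure D4:**
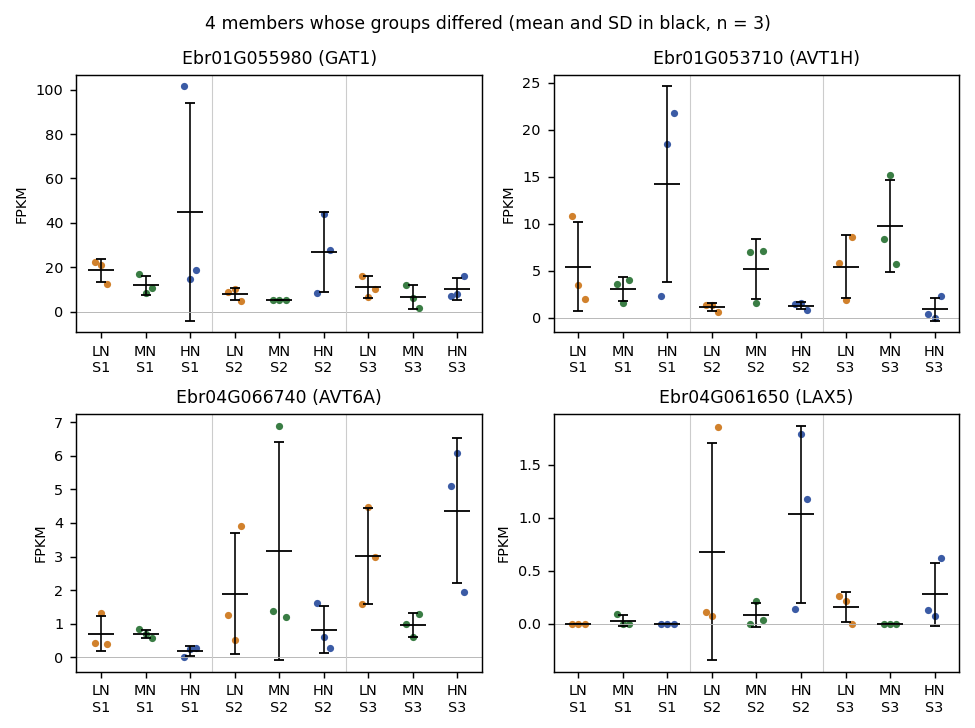
FPKM of 4 further members that passed the test for any difference among groups, with 1 point per library and the mean and SD (n = 3) in black; bars that pass below 0 reflect an SD above the mean. Ebr01G055980 is set by HN S1 A at 102 FPKM, and Ebr01G053710 is high in HN S1 B and C. Ebr04G066740 is highest in MN S2 B, followed by HN S3 B and A, and Ebr04G061650 stays under 2 FPKM.

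In the comparisons of S3 with S1 within a supply, which asked how leaves changed between 24 and 48 DAT, the test called 0 members in LN and 0 in MN, where it called 0.00699% and 0.0490% of all genes. At an unadjusted p under 0.05, 5 members differed in LN, 2 in MN and 11 in HN, beside 11.6%, 10.9% and 20.9% of all genes. DESeq2 on 27 libraries called 1, 1 and 5 of the 53 members it tested, where it called 1.66%, 1.46% and 4.89% of genes. The single test for any difference among the 9 groups called 10 of 35 members, where it called 15.9% of all genes, and 17 members had an unadjusted p under 0.05, beside 38.2% of genes. Besides those described, the 10 included 4 with lower support. Ebr01G053710 (adjusted p = 0.0461) was called when LN S1 A or C, HN S1 A, LN S3 B, or HN S3 B or C was left out, and was lost without any other library, with adjusted p up to 0.0938, and with the replicate letter as a block (0.0534). Ebr04G061650 (0.0428) was called when MN S1 A, HN S1 A, LN S2 B or C, MN S2 A or B, HN S2 A, LN S3 B or C, or HN S3 C was left out, and lost otherwise, with adjusted p up to 0.0949, with the block (0.0855) and with limma (0.134 and 0.0616). Ebr01G055980 (0.0299) was lost without HN S1 A, MN S2 B or C, HN S2 B or C, or HN S3 A or B (up to 0.0636) and with limma (0.0604 and 0.0617), and Ebr04G066740 (0.0316) without MN S1 B, HN S1 B or C, HN S2 B or C, or HN S3 A or B (up to 0.0770). With 1 library of each close pair left out, the edgeR test for any difference called 0 members, and 11 had an unadjusted p under 0.05; it called only 32 of 29578 genes in all, so the members share this loss with most genes.

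A further pair among the 10 belonged to a row of neighbouring genes on chromosome 2. Members within 200 kb of each other formed 8 such clusters, which held 22 of the 66 genes. The largest stretch, from 318344566 to 318553256, held 5 genes that all match AVT1I. Ebr02G036700, at one end, was read in every library with 60 to 157 counts. The other 4 were close to silent except in 1 library, MN S2 B, where Ebr02G036710, Ebr02G036720, Ebr02G036750 and Ebr02G036760 had 157, 124, 723 and 444 counts. The other libraries of MN S2 had at most 3 counts of each. Lower counts of Ebr02G036750 appeared in LN S1 C (61), LN S2 A and B (28 and 80) and MN S3 B (20), and 14 and 23 counts of Ebr02G036760 in LN S1 C and LN S2 B.

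Over the 27 libraries, the log2(FPKM + 1) values of these 4 genes had Pearson correlations between 0.880 and 0.985 with each other, and between 0.154 and 0.258 with Ebr02G036700. These are given as a description, since the points share library and depth and MN S2 B dominates them. Reads of near-identical neighbours can be split between copies in counting, so the counts of the single genes are uncertain. The test for any difference passed for Ebr02G036760 (edgeR adjusted p = 0.0205) and for Ebr02G036750 (edgeR adjusted p = 0.0373; named after its values were seen). Without MN S2 B the adjusted p was 0.191 and 0.204. With all libraries kept, limma called neither (0.436 and 0.290 for the first, 0.477 and 0.427 for the second), and Ebr02G036750 was lost with DESeq2 (0.153) and with the replicate letter as a block (0.0840). Ebr02G036750 was also lost without MN S1 B or C, HN S1 B or C, LN S2 A, HN S2 B or C, or HN S3 A or B. In HN S2 the counts of Ebr02G036760 were 0, 0 and 1, below every library of MN S2 (2, 444 and 2) and at or below those of LN S2 (2, 23 and 1), and neither difference was called (edgeR adjusted p = 0.177 and 0.532). Another 5 neighbours on chromosome 4, from 452656490 to 452816403 and all matched to LHTL8, had 1 count in total.

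**Figure D5:**
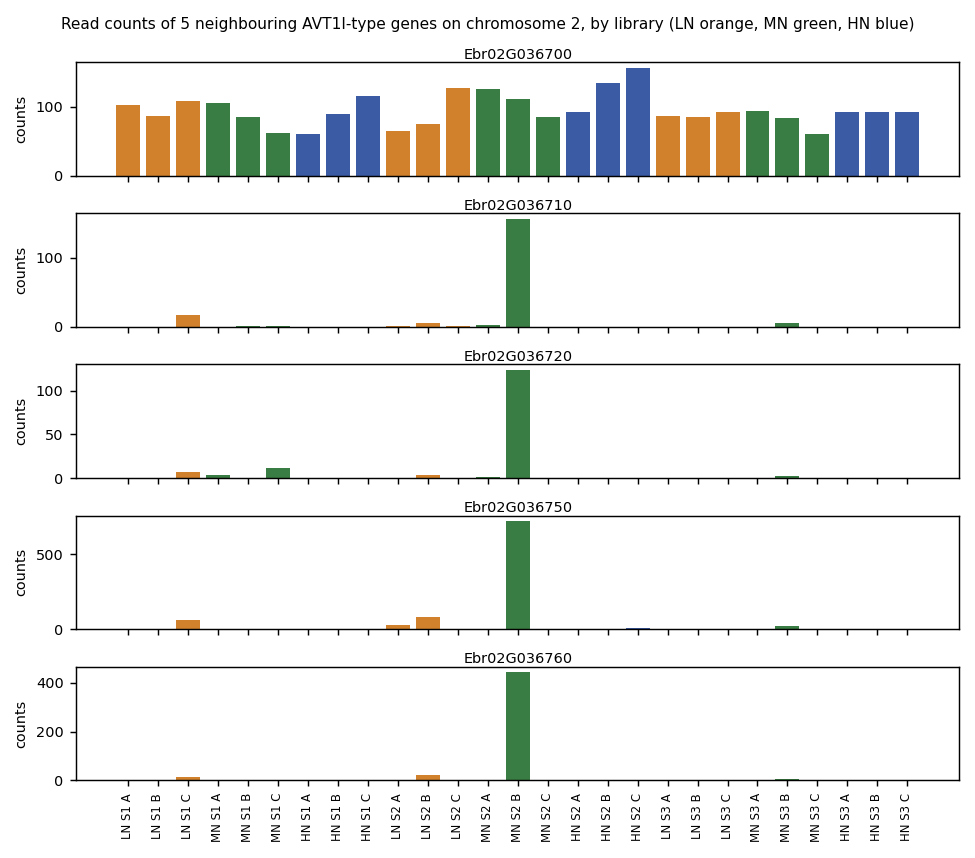
Read counts of the 5 neighbouring AVT1I matches in each of 27 libraries, with 1 panel per gene, its own axis and bars coloured by supply. Ebr02G036700 is read in every library, while the other 4 genes rise together in MN S2 B, to between 124 and 723 counts.

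Other carriers of amino acids were taken as lists by description, outside the family. Of 30 cationic amino acid transporters, 60 WAT1-related genes, 9 glutamine dumpers and 5 bidirectional permeases, 20, 27, 6 and 2 were tested. At S2, 16 of 20, 18 of 27, 2 of 6 and 1 of 2 of them were lower in LN than in MN, beside 23 of 35 family members. In the 12 pairwise comparisons a single gene of these lists was called: the CAT5 match Ebr06G036050 fell from S1 to S3 in HN by a log2 fold change of -2.18 ± 0.55 (edgeR adjusted p = 0.0462), in the comparison with 1.50% of all genes called. The test for any difference called 4, 5, 1 and 0 of them, or 18.2% of 55, beside 15.9% of all genes. The interaction test called 0, with 4, 8, 1 and 0 at an unadjusted p under 0.05, or 23.6%, beside 15.8% of genes. DESeq2 called 4 members of the family in the interaction test, where it called 3.83% of all genes.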

How the data were processed

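RNA was extracted from leaves and sequenced by the authors on an Illumina NovaSeq. The deposited counts are whole reads for each gene that the authors tallied, and the submitters' processing notes list HISAT2 2.0.5, StringTie 1.3.3b and featureCounts 1.5.0-p3. The study's methods give HISAT2 as the aligner to the species' genome and StringTie for finding transcripts, and the role of featureCounts was not stated. The genome build's name, the annotation version and the strand setting were not given in the sources used here, so overlapping and near-identical genes are uncertain. The FPKM values deposited by the authors equal the count over gene length, scaled by a factor per library, and were used for levels, while all main tests used the counts.

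Groups came from the sample labels. A single model over 27 libraries was fitted with edgeR 4.0.16 under R 4.3.3 (default filterByExpr filter, TMM scaling, two-sided quasi-likelihood F test, Benjamini-Hochberg adjustment over 28593 genes), with 12 pairwise comparisons, a test for any difference (8 contrasts) and an interaction test (4 coefficients), the last 2 called at an adjusted p under 0.05 alone. SEs were derived from F, as the size of the log2 fold change divided by F's square root. Alternatives used DESeq2 1.42.0 and limma 3.58.1 on log2(FPKM + 1) or log2(FPKM + 0.1), other samples, filters and normalizations, the replicate letter as a block, and each library left out. Scripts were tested on simulated data. The main edgeR p-values rest on the spread between libraries within groups, pooled over all groups (18 residual degrees of freedom). The counting standard deviations used for the close pairs cover counting error only.

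Described with values were Ebr06G007730, each member called in a comparison or in the interaction test, in each comparison and direction the non-overlapping member of lowest p, the 10 members highest in mean FPKM, and the highest of each subfamily. Others are said to be chosen after their values were seen. The members and lists were chosen with earlier results of these data known. Total counts per library ranged from 13609959 to 18482851. No sequence is shown, since no genome or sequence table was used here.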

Additional observations from a re-analysis of the deposited data

Results flagged for a closer look

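The nitrogen effect on Ebr06G007730, the AVT1C match, differed between stages in the interaction test over the 9 groups (edgeR adjusted p = 0.0428). The call ended when any of 16 of the 27 libraries was left out (0.0515 to 0.103), with the replicate letter as a block (0.0572) and without 1 library of each close pair (0.745). The log2 fold change of HN against MN over S1, S2 and S3 was -3.05 ± 0.38, 0.11 ± 0.35 and -0.36 ± 0.35, and for LN against MN it was -1.69 ± 0.36, -0.18 ± 0.35 and -0.14 ± 0.35. At S1 all 3 HN libraries and all 3 LN libraries lay below the 3 MN libraries. Chlorophyll a-b binding transcripts, summed over 61 genes, were 35314 to 65046 FPKM in HN S1 and 38852 to 52729 in MN S1, and 2 Rubisco small subunit genes summed to 56.9 to 153 FPKM in HN S1, 1.03 to 36.7 in MN S1 and 1.66 to 21.7 in LN S1, without overlap of HN with the others. At later stages the Rubisco genes summed to 22.4 to 125 FPKM in MN S2 and 25.8 to 292 in MN S3. The part of these marker genes in the difference was not tested.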

How the results depend on the processing

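Recomputed in the alternatives were 33 fold changes, not all of those given above (HN vs MN S3 of Ebr04G066740 was not among them). Most were picked as called or as non-overlapping, and leaving out 1 library can hardly turn such a difference. Of the 33, 28 kept their direction in every alternative, which is therefore little evidence of stability. The other 5, all of Ebr06G007730 and not called, turned when 1 library was left out, with log2 fold changes from -0.37 to 0.083 in LN vs MN S2 (turned without MN S2 B), -0.56 to 0.28 in LN vs MN S3 (LN S3 C or MN S3 C), -0.094 to 0.36 in HN vs MN S2 (MN S2 A or HN S2 B), -0.66 to 0.061 in HN vs MN S3 (MN S3 C) and -0.62 to 0.088 in S3 vs S1 MN (MN S3 A). DESeq2 on 27 libraries called 2, 2, 1, 1, 1, 1, 1 and 5 members in LN vs MN S1, HN vs MN S1, S2 and S3, HN vs LN S1, and S3 vs S1 in LN, MN and HN, and 4 in the interaction test (0.806% to 4.89% of all genes over the 12 pairs and 3.83% in the interaction). DESeq2 on the 6 libraries of a comparison called 2 and 3 in LN vs MN S1 and S2, 3, 3 and 3 in HN vs MN S1, S2 and S3, 1 and 2 in HN vs LN S1 and S2, and 2 and 5 in S3 vs S1 in MN and HN (0.568% to 7.09% of genes). In the pairwise comparisons DESeq2 tested 53 members on 27 libraries and 41 to 49 on 6 libraries. limma on log2(FPKM + 1) called 1 in LN vs MN S1, 1 in HN vs MN S3 and 4 in S3 vs S1 HN (0.147% to 5.10% of genes); on log2(FPKM + 0.1) it called 2 in HN vs MN S1, 1 in HN vs MN S3 and 4 in S3 vs S1 HN (0.0804% to 4.74%). edgeR on 6 libraries called 1 in S3 vs S1 HN (0% to 2.20% of genes, with 28 to 31 members tested). Besides these counts, limma on log2(FPKM + 1) and edgeR on 6 libraries kept the call of Ebr06G007730 in HN vs MN S1. Of 36 alternatives, 1 lost that call, the setting without 1 library of each close pair. Without 1 library of each close pair, edgeR called 0 in HN vs MN S1, 0 in S3 vs S1 HN, 0 in the test for any difference and 0 in the interaction test (0% to 0.0575% of genes in the pairs, 0.108% and 0%). With each library left out in turn, the calls ran from 0 to 1 in HN vs MN S3, 1 to 3 in S3 vs S1 HN, 5 to 12 in the test for any difference and 0 to 1 in the interaction test. The share of all genes called in these fits is not given, so these ranges are not read as a result about the members.

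The deviations of same-letter libraries correlated at 0.0343 on average (-0.261 to 0.367), against -0.0166 for other letters. Of the 27 libraries, 13 correlated best with their own letter. No reference was set for these values, so whether the replicate letters pair the samples was not tested. With the replicate letter as a block, 7 members passed the test for any difference instead of 10 (15.1% of genes instead of 15.9%; Ebr01G053710, Ebr02G036750 and Ebr04G061650 were lost, with edgeR adjusted p = 0.0534, 0.0840 and 0.0855), and 0 the interaction test (Ebr06G007730, 0.0572, beside 0.0630% of genes), and the counts in the 12 pairwise comparisons were those of the fit without it. The cause of these changes was not tested. The 31 members that the count filter removed, with at most 197 counts each, were not compared in the main edgeR tests.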
